A study of Bos taurus with 6 samples.

Results

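The 4 bovine casein genes and STAT5A were followed in MAC-T cells, an immortalised line of bovine mammary epithelium, by mRNA sequencing. The 5 rows were taken by gene ID from count files of 28522 rows each: CSN1S1 (ENSBTAG00000007695), CSN1S2 (ENSBTAG00000005005), CSN2 (ENSBTAG00000002632), CSN3 (ENSBTAG00000039787) and STAT5A (ENSBTAG00000009496). All 5 were present in each file. In one group of 3 libraries the cells had received a miR-199a-3p mimic, a synthetic RNA that supplies the activity of this microRNA, and in the other group of 3 an NC (negative control) mimic. Both were given at 50 nM, and cells were taken at 48 h. All libraries thus come from a single transfected line grown in plastic wells. The growth protocol names medium with fetal bovine serum, and no prolactin or glucocorticoid is named in it. The experiment is described as performed in triplicate without saying that the cultures were separate, so p-values measure only the spread between these libraries, which may be technical.

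Caseins are the main proteins of milk. CSN1S1, CSN1S2 and CSN2 encode the calcium-sensitive alpha-S1, alpha-S2 and beta caseins, which bind calcium phosphate in the core of the casein micelle, and CSN3 encodes kappa casein, which stabilises the micelle at its surface. STAT5A, first described as mammary gland factor, is a transcription factor that is phosphorylated by JAK2 after prolactin binds its receptor, and it then binds the promoters of casein genes in the lactating gland. Messenger RNA counts measure the STAT5A transcript and not the phosphorylated protein. In the RefSeq gene table of the assembly ARS-UCD2.0, the 4 casein genes lie in one cluster in the order CSN1S1, CSN2, CSN1S2 and CSN3, with HSTN and STATH between CSN2 and CSN1S2, and PRR27 and ODAM between CSN1S2 and CSN3. STAT5A lies between its close paralog STAT5B and STAT3. The processing notes name another build, UMD3.1, so no coordinates are given.

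The libraries held 16303257 to 23720655 counts, and 118820020 in all. NC replicate 2 stood apart. Its log2 CPM (counts-per-million) correlated with NC replicates 1 and 3 at 0.985, against 0.993 between those replicates, across rows, which are not independent replicates. The comparison of STAT5A between the groups is given below with and without it. The cell type could not be checked against epithelial, mesenchymal or immune markers, as 0 of 23 marker symbols could be matched to the IDs of the files.

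No casein transcript was detected in any library. CSN1S1 held 0 counts in NC replicates 1, 2 and 3 and 0 counts in mimic replicates 1, 2 and 3. CSN1S2, the least abundant of the calcium-sensitive caseins in cow's milk, also held 0 counts in each of the 6 libraries. CSN2, whose promoter was among the first shown to bind STAT5, held 0 counts in each of the 6. CSN3, the casein cut by chymosin when milk clots, held 0 counts in each of the 6. All 24 casein values were therefore 0, in the controls as well as with the mimic.

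For a count of 0 the limit was taken as 3 counts, the level needed for detection, so the limit on each casein differs with depth. The limit was 0.124, 0.133 and 0.181 CPM in NC replicates 1, 2 and 3, and 0.169, 0.157 and 0.161 CPM in mimic replicates 1, 2 and 3, where CPM are scaled to the tested rows' summed counts in a library, multiplied by its TMM normalisation factor. These limits cover counting error only. Over the 62221783 counts of the NC libraries together, 3 counts gave a limit of 0.0482 CPM of the library totals for each casein. Over the 56598237 counts of the mimic libraries the limit was 0.0530 CPM. Over all 6 libraries the limit was 0.0252 CPM, for each casein and for the sum of the 4. In RNA from a whole culture, fewer cells that express a gene and less RNA per cell cannot be told apart, so the limits hold for the average over all cells.

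**Figure D1:**
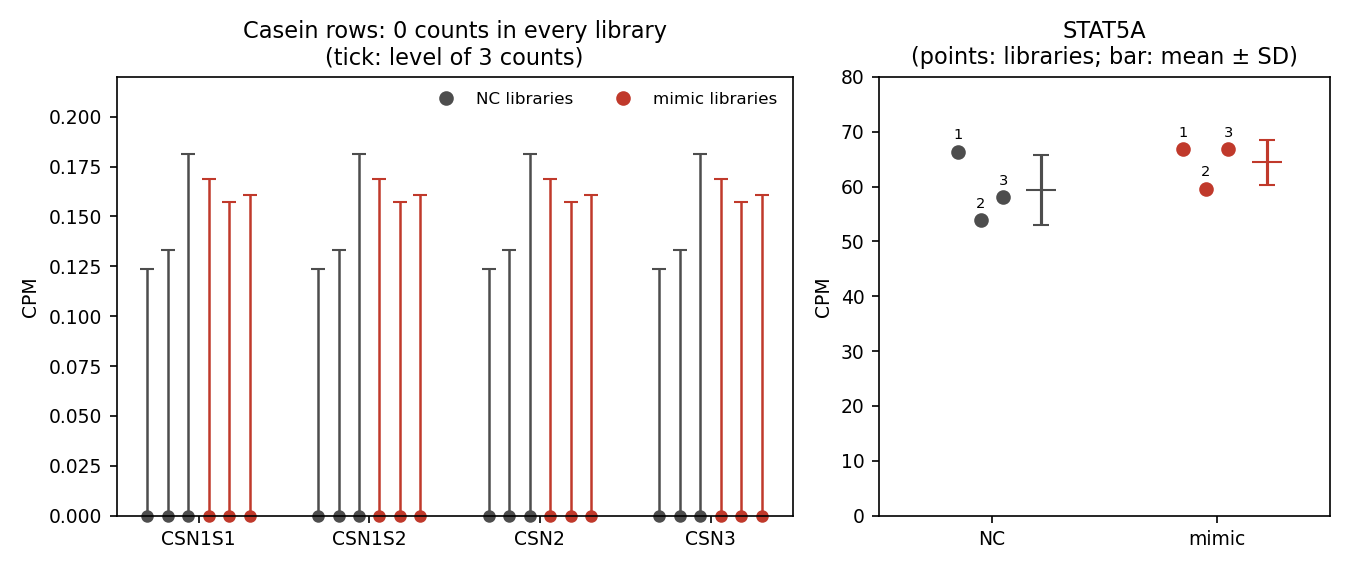
Left, CPM of the 4 casein rows in each library (points, grey for NC and red for mimic), all at 0, with a vertical line up to the level that 3 counts would give in that library (0.124 to 0.181 CPM). Right, CPM of STAT5A in each library (points with the replicate number) beside the mean ± SD of each group, with NC libraries at 53.9 to 66.4 CPM and mimic libraries at 59.6 to 66.8 CPM.

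Rows at 0 were common in the files, and rows with few counts were common too. Of 27270 rows with an Ensembl ID, 8944 (32.8%) held 0 counts in all 6 libraries, and the 4 caseins were among them. A further 3314 rows held 1 to 10 counts over the 6 libraries together, so the files did record rows seen by a handful of reads. None of the caseins was in that class. Whether the counting used for these files could assign reads to the casein rows was not tested, since none of the 6 libraries held a count in them.

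**Figure D2:**
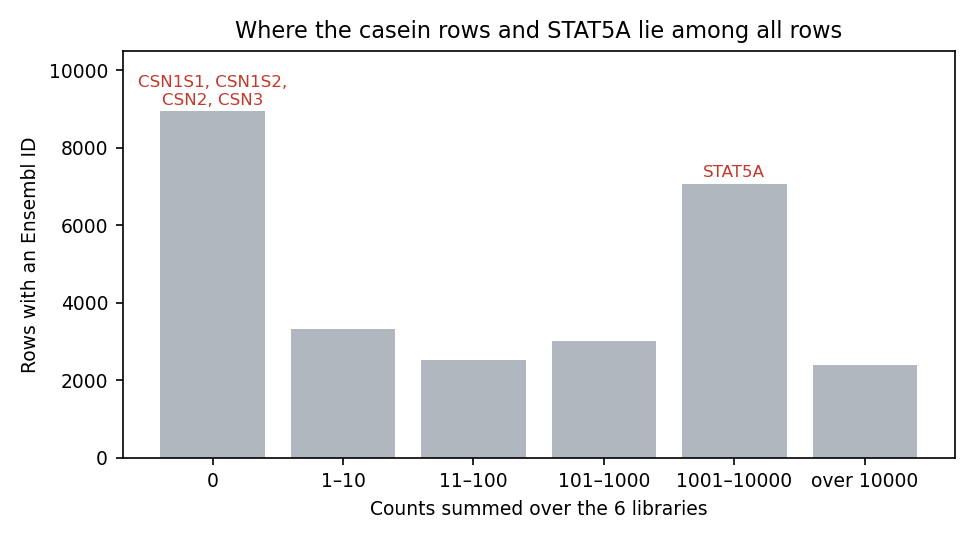
Number of rows with an Ensembl ID in classes of their counts summed over the 6 libraries. The 4 casein rows lie among the 8944 rows at 0, and STAT5A, with 7358 counts in all, lies in the class next to the highest, which holds 7072 rows.

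With 0 counts in both groups, no fold change between mimic and NC can be given for CSN1S1, CSN1S2, CSN2 or CSN3. None of the 4 passed the filter on low counts, and none entered the test. Only STAT5A, 1 of the 5 members, was tested.

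The STAT5A transcript was present in every library. It held 1612, 1213 and 961 counts in NC replicates 1, 2 and 3, and 1188, 1137 and 1247 counts in mimic replicates 1, 2 and 3. In CPM these were 66.4, 53.9 and 58.0 in NC and 66.8, 59.6 and 66.8 in mimic libraries. The groups overlapped: NC replicate 1 lay close to mimic replicates 1 and 3, and above mimic replicate 2. NC replicates 2 and 3 lay below all 3 mimic libraries.

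The mean of STAT5A was 59.4 ± 6.36 CPM in NC and 64.4 ± 4.14 CPM in mimic libraries (SD, n = 3). The difference of 4.98 CPM was smaller than the SD of the NC libraries, and an exact permutation test over the libraries (two-sided) gave p = 0.2, where 3 against 3 libraries cannot go below 0.1. Without NC replicate 2 the NC mean was 62.2 ± 5.90 CPM (SD, 2 libraries) and the difference 2.20 CPM, with p = 0.5 by the same exact permutation test, which again cannot go below 0.1. In the edgeR fit across all rows, STAT5A had a log2 fold change of mimic over NC of 0.12 ± 0.09 (standard error), or 1.08-fold, at an edgeR adjusted p of 0.440. Its 95% interval ran from -0.09 to 0.32 on the log2 scale, or from 0.940-fold to 1.25-fold. STAT5A was therefore not called changed. The bounds of this interval correspond to a rise of 1.25-fold and a fall of 1.06-fold. Over the 14 alternative settings the interval bounds reached -0.17 and 0.40 on the log2 scale. A p above the threshold does not show that the groups had the same level.

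The same test called 1643 of 13949 rows (11.8%) at an edgeR adjusted p under 0.05. This share varied with the libraries used. Omitting NC replicate 2 raised it to 24.5%, and omitting NC replicate 1 or 3 lowered it to 8.88% or 6.71%. The omission of mimic replicate 1, 2 or 3 gave 3.33%, 3.61% or 3.68%. Each omission also left fewer libraries in the test, and the effect of that alone was not tested. The CPM of the groups did not overlap in 34.2% of the rows tested, or in 49.3% when NC replicate 2 was set aside, and STAT5A overlapped in both cases. Its absolute log2 fold change was exceeded by 62.4% of the rows tested, whose median was 0.16. Its standard error was smaller than that of 64.7% of the rows tested, and its mean CPM was exceeded by 23.5% of the rows tested.

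**Figure D3:**
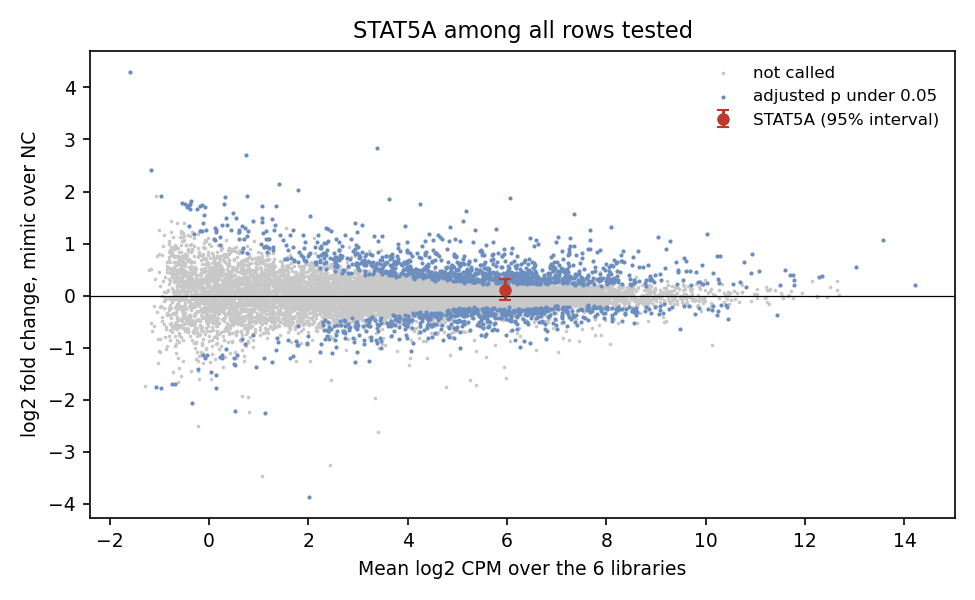
Log2 fold change of mimic over NC against mean log2 CPM for the 13949 rows tested, with rows called at an edgeR adjusted p under 0.05 in blue. STAT5A (red, with its 95% interval from -0.09 to 0.32) lies in the band of rows that were not called.

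NC replicate 1 differed in STAT5A from the other NC libraries by more than counting error. The 95% Poisson interval of the STAT5A count was 1534 to 1693 for NC replicate 1 and 1146 to 1283 for NC replicate 2. In CPM of the library totals these were 64.7 to 71.4 and 51.6 to 57.8 CPM, without overlap. NC replicate 3, at 55.3 to 62.8 CPM on that scale, overlapped NC replicate 2 and not NC replicate 1. In the mimic group the intervals of replicates 1, 2 and 3 were 61.6 to 69.1, 55.3 to 62.1 and 62.0 to 69.4 CPM. Each overlapped the others, with replicates 2 and 3 sharing only 62.0 to 62.1 CPM. Overlap of such intervals does not show that libraries differed by counting error only. The coefficient of variation of STAT5A was 10.7% in NC (9.48% without NC replicate 2) and 6.42% in mimic libraries. On the log2 scale its SD was 0.15 in NC and 0.09 in mimic libraries, against medians of 0.15 and 0.09 over all rows tested. Without NC replicate 2 the NC values were 0.14 for STAT5A and 0.09 for the median row.

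The size of the STAT5A difference depended on which library was left out. Without NC replicate 2, the library that stood apart and the lowest in STAT5A, its log2 fold change was 0.04 ± 0.07 (standard error), at an edgeR adjusted p of 0.748. Without NC replicate 1, the highest NC library, it was 0.20 ± 0.08, and its unadjusted edgeR p was 0.0354 and its adjusted p 0.146. Without NC replicate 3 the log2 fold change was 0.09, and without mimic replicate 1, 2 or 3 it was 0.09, 0.17 or 0.09. The direction was a rise in each of these cases, and none passed the threshold. Scaling also mattered to the size: with library totals alone the log2 fold change was 0.06 (edgeR adjusted p = 0.689), where the median of all rows moved to -0.06. Scaled to the library totals alone, STAT5A was at 68.0, 54.6 and 58.9 CPM in NC and 65.3, 58.6 and 65.6 CPM in mimic libraries. NC replicate 1 was then the highest of all 6, and NC replicate 3 lay above mimic replicate 2.

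**Figure D4:**
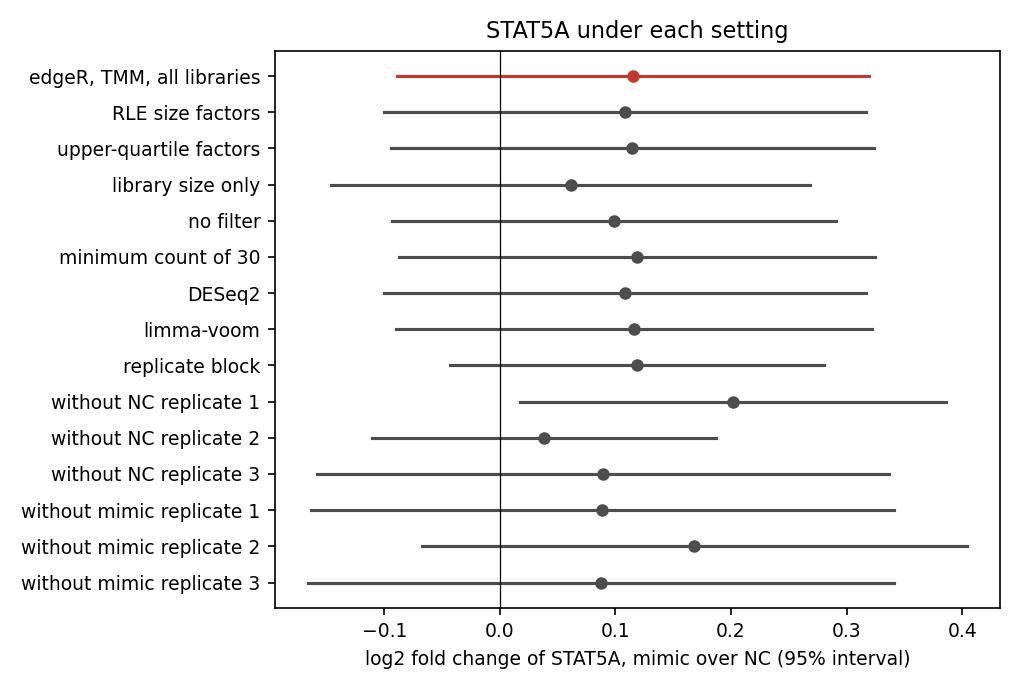
Log2 fold change of STAT5A, mimic over NC (points), with its 95% interval (lines) in the reported fit (red) and under each of 14 other settings. All estimates lie between 0.04 and 0.20, and the interval excludes 0 only without NC replicate 1.

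Reads of STAT5A may be shared with STAT5B, a near-identical neighbour, and the sources used here do not say how the counting treated such reads. The level and the difference of STAT5A are uncertain to that extent. The row of STAT5B could not be named, as no table used here pairs the IDs of the files with symbols. For the same reason, 31 genes of prolactin and growth hormone signalling, JAK and STAT factors, SOCS inhibitors and lactogenic transcription factors, and 15 other milk genes such as LALBA (alpha-lactalbumin) and PAEP (beta-lactoglobulin), were not analysed here.

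The rows whose profile over the 6 libraries was most like that of STAT5A were ENSBTAG00000045628 and ENSBTAG00000019069. Likeness was the root mean square difference of log2 CPM after each row was centred on its own mean, among 9206 rows that varied at least as much as STAT5A. It was 0.0225 for ENSBTAG00000045628, which held 6.55, 5.06 and 5.68 CPM in NC and 6.58, 5.87 and 6.54 CPM in mimic libraries. It was 0.0343 for ENSBTAG00000019069, which held 160.9, 127.1 and 142.4 CPM in NC and 158.1, 150.9 and 160.1 CPM in mimic libraries. All 3 rows were lowest in NC replicate 2, and none was called changed (edgeR adjusted p = 0.581 for ENSBTAG00000045628 and 0.378 for ENSBTAG00000019069). The likeness is a description over 6 libraries and was searched for over many rows. The shared pattern over the libraries follows from that search and is not a separate result.

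**Figure D5:**
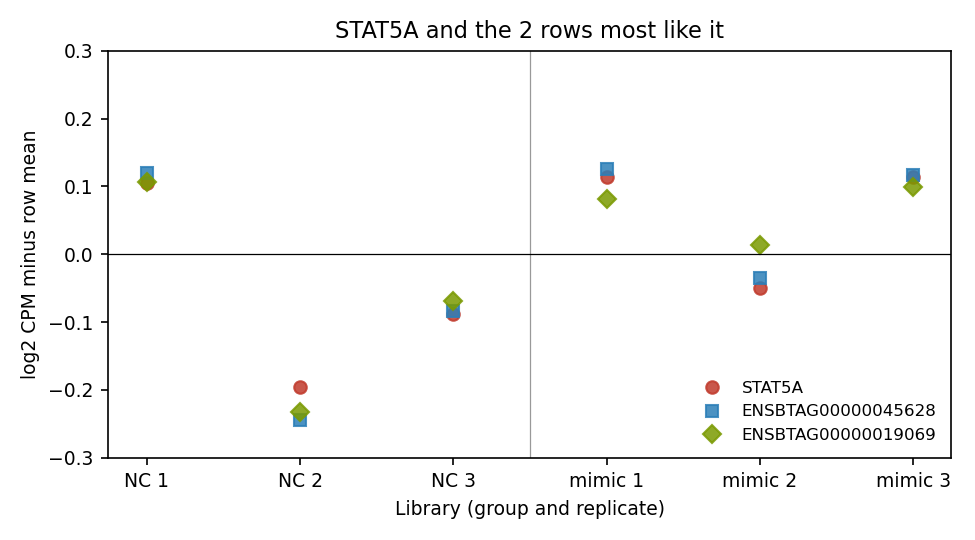
Log2 CPM minus the row's own mean in each library for STAT5A (red circles) and the rows most like it, ENSBTAG00000045628 (blue squares) and ENSBTAG00000019069 (green diamonds). All 3 are lowest in NC replicate 2 and high in NC replicate 1 and mimic replicates 1 and 3, as the rows were picked for their likeness to STAT5A.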

How the data were processed

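The files hold raw counts per gene ID as deposited, 1 file per library. Per the submitters' processing notes, HISAT2, DESeq2 and the build UMD3.1 were used, without versions or roles. Which tool counted the reads, with which annotation and strand setting, was not given in the sources used. The names of the 5 genes came with their IDs from the definition of the set, and the members and lists were chosen with earlier results of these data known. The reference table (37063 genes, ARS-UCD2.0) matched 0 IDs of the files.

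The main test, on the counts of all rows, was edgeR's quasi-likelihood test (version 4.0.16, R 4.3.3, two-sided), with TMM normalisation, group as the only term and the default filter (minimum count 10, minimum total 15). Benjamini-Hochberg adjustment of p-values ran over the 13949 rows tested, with a threshold of 0.05. CPM used the library total over the rows tested times the TMM factor. Detection needed 3 counts. The rule for named genes was the 5 members, genes of the lists that had a symbol, and the 2 rows most like STAT5A (log2 CPM with a prior count of 2). Alternatives used limma 3.58.1 (voom), DESeq2 1.42.0, other scalings and filters, a replicate block and the omission of each library. The procedure was tested on simulated data. These had the same dispersion in all rows and libraries, so they do not cover a library that stands apart. Same-group libraries differed beyond sampling noise, with a chi-square per degree of freedom of 2.61 to 35.7. Plots used matplotlib 3.10.9.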

Additional observations from a re-analysis of the deposited data

How the results depend on the processing

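STAT5A was not called in any of the 14 alternatives, and its log2 fold change stayed above 0, from 0.04 to 0.20, both ends coming from the omission of an NC library (adjusted p 0.146 to 0.748). The 4 casein rows entered no alternative, as they held no counts. The CPM difference of STAT5A was 4.98, and 2.66 when scaled to the library totals alone (exact permutation p = 0.2 and 0.7). Without NC replicate 2, a setting added for this difference after seeing the data, it was 2.20. Leaving out 1 library gave 472 to 3460 called rows against 1643, the highest without NC replicate 2, and the other settings gave 1411 to 1778. In the fit with a replicate block 1411 rows were called, and STAT5A had a log2 fold change of 0.12 ± 0.07 (standard error, edgeR adjusted p = 0.307). The labels state no pairing, so same-numbered libraries were not treated as pairs in the main test. Across rows, deviations of same-numbered libraries correlated at 0.003 to 0.054, and those of differently numbered libraries at -0.062 to 0.038. The search for STAT motifs in promoters and the alternatives for the gene lists were not run. The casein result is a detection limit, 0.0252 CPM over the 6 libraries together at 3 counts, and not a confidence bound. It holds only if reads could be assigned to the casein rows, which was not tested.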
